A study of Mus musculus with 2 samples.

Results

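The mitochondrial genome of the mouse encodes 37 genes, 13 mRNAs for proteins of the respiratory chain, 2 ribosomal RNAs and 22 transfer RNAs. They were taken as all genes that the GENCODE annotation places on chromosome M, which are the genes with symbols that begin with mt-. They made up 37 of the 43346 genes in each table. The rule used no measured value. All 37 identifiers and annotated lengths in the tables were the same in the later annotation release (M21 of GRCm38) from which positions and sequences were taken.

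The series holds 2 libraries of total RNA from embryonic day 13.5 midbrain of the mouse strain B6NCrl, which form 1 group. Each library was made from 10 ng of RNA in a size range above 200 nt, with spike-in RNA added, and each came from its own biosample of pooled male and female tissue. The labels number them as biological replicates 1 and 2, and there was no second condition. With 1 library on each side of any difference no test was possible, so values are given per library, or as a mean with the SD of the 2 libraries. The spread between 2 libraries is a rough measure of error.

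Mitochondrial DNA is a compact circle that is transcribed from both strands into long precursors. Most genes are read from the heavy strand, and mt-Nd6 and a minority of the tRNAs from the light strand. The tRNAs lie between the mRNAs and rRNAs, and cutting them out by RNase P and ELAC2 releases the mature RNAs, most of which then receive a short poly(A) tail. The 13 proteins join a much larger number of nuclear-encoded subunits in complexes I, III, IV and V, which supply ATP to cells with a high demand such as neurons. Pieces of mitochondrial DNA have also entered the nuclear chromosomes during evolution, and reads from such copies and from the mitochondrial genes can be identical.

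Replicate 1 held 31436613 expected reads on genes and replicate 2 held 40215359. An expected read is a read that the authors' estimation divided among the genes it matched. The spike-ins took 5.36% of the summed TPM (transcript level scaled to transcript length and to a fixed total per library) in replicate 1 and 9.39% in replicate 2, which lowers the TPM of every gene slightly more in replicate 2. All 7 midbrain markers were detected, with Otx2, a transcription factor of the forebrain and midbrain, at 111 ± 8.97 TPM (SD, n = 2). None of the 4 hindbrain markers (0 of 4) and none of the 6 muscle markers (0 of 6) reached 1 TPM in both libraries. Blood, endothelium and meninges markers were all detected, with summed levels of the 6 blood markers at 9835 and 10114 TPM, and of the 4 meninges markers at 230 and 281 TPM. Fewer cells of a type and less RNA per cell cannot be told apart in such tissue RNA.

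The 37 genes took 1.77% of the gene reads in replicate 1 (exact Clopper-Pearson 95% interval 1.76 to 1.77%) and 1.65% in replicate 2 (1.65 to 1.66%), a mean of 1.71 ± 0.081% (SD, n = 2). These intervals cover counting error only. The mRNAs held 1.23% and 1.16% of the gene reads and the rRNAs 0.540% and 0.498%. Within the mitochondrial reads the division was close between the libraries, with 69.4% and 69.9% on mRNAs. Detected at 1 TPM or more in both libraries were 15 of the 37, namely all 13 mRNAs and both rRNAs, beside 14878 of all 43346 genes. Of these 15, 10 stood among the 100 genes with the highest TPM in each library.

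None of the 22 tRNAs had a read in either library, and this count cannot be read as absence of the tRNAs. Their annotated lengths ran from 59 nt (mt-Ts2) to 75 nt (mt-Tl1). Each had an effective length of 0 in the tables, which is the number of places where a read could start. For all 15 mRNAs and rRNAs the effective length was the annotated length minus 99, the number of 100-base windows in the transcript. The same held beyond chromosome M: 0 of 2218 genes shorter than 100 nt had a read, and 510 of 3866 genes of 100 to 199 nt did, the shortest of them 101 nt long. The labels also state that the RNA was of a size above 200 nt. These tables therefore give no level for the 14 tRNAs on the plus strand or the 8 on the minus strand. The sense sequences of 3 tRNA genes, from the M21 transcripts, show how short they are: the shortest, the longest, and the tRNA for phenylalanine (mt-Tf, chrM:1-68), with which the numbering of the genome begins.
mt-Ts2: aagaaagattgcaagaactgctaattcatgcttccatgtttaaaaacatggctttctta
mt-Tl1: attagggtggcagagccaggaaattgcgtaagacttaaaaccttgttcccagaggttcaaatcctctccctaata
mt-Tf: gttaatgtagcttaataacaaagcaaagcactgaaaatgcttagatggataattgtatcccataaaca

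**Figure D1:**
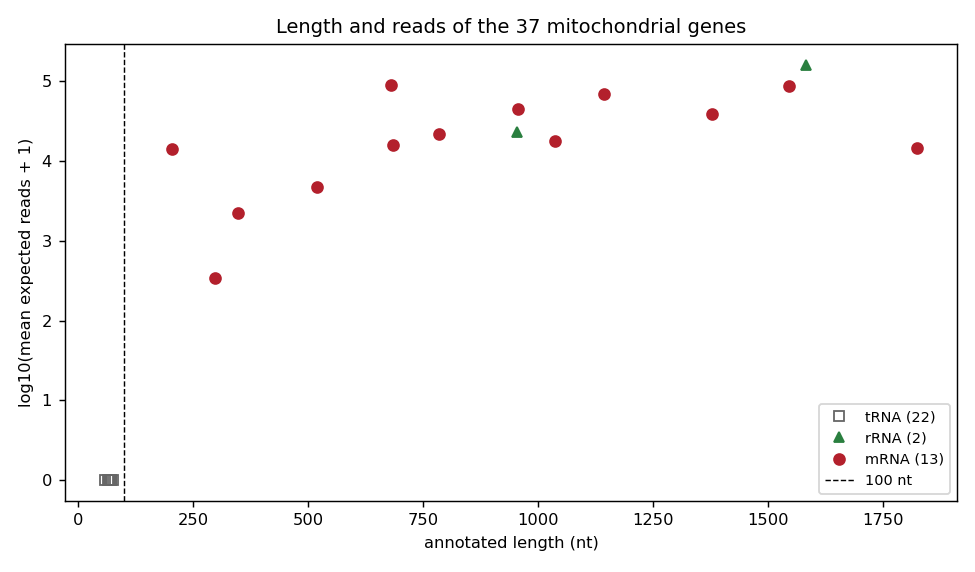
Annotated length (x axis, nt) against the mean of the expected reads of the 2 libraries (y axis, log10 of reads + 1) for the 37 mitochondrial genes. The 22 tRNAs lie left of the dashed line at 100 nt and at 0 reads, and the 13 mRNAs and 2 rRNAs lie right of it, all with reads.

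The mRNA genes are packed so tightly that several overlap, by 43 bases at most. The gene for mt-Atp8, a small subunit of ATP synthase (chrM:7766-7969, plus strand), shares its last 43 bases, in capitals, with the start of mt-Atp6, another subunit of the same enzyme (chrM:7927-8607).
mt-Atp8: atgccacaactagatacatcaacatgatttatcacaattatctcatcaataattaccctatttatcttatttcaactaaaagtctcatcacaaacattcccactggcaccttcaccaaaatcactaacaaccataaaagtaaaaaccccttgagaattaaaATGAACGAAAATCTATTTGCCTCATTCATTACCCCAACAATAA
The gene mt-Nd4l (chrM:9877-10173) overlaps mt-Nd4 (chrM:10167-11544) by 7 bases, both genes of complex I that are carried on a shared mRNA. The only overlap between mRNAs of opposite strands joins mt-Nd6 (chrM:13552-14070, minus strand) to mt-Nd5 (chrM:11742-13565, plus strand) over 14 bases. The ends of mt-Nd4l and mt-Nd6 are shown with the shared or complementary bases in capitals.
mt-Nd4l end: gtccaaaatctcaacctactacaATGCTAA
mt-Nd6 end: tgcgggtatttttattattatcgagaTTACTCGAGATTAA

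Start and stop codons of these genes follow the mitochondrial code. Of the 13 mRNAs 9 begin with ATG, and the other 4 are mt-Nd1 with GTG, mt-Nd2 with ATA, mt-Nd3 with ATT and mt-Nd5 with ATC. In 3 mRNAs, mt-Co3, mt-Nd4 and mt-Cytb, the annotated gene ends in a bare T, and it is known that the poly(A) tail completes such a stop codon to TAA. No 100-base window of any member was identical to the reverse strand of another gene (0 windows). The sources used here do not say whether the authors' counting used the strand of the reads. The 14 bases shared by mt-Nd5 and mt-Nd6 are shorter than a 100-base window, and both genes had whole counts in both libraries. Any antisense RNA over the mitochondrial genes cannot be assigned from these tables.

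The authors' estimation assigned a large part of the reads that match the mitochondrial genome to nuclear copies of it. Of the 13 mRNAs 8 shared at least one identical 100-base window with an annotated nuclear pseudogene. For 5 of them, mt-Co2, mt-Atp6, mt-Co3, mt-Nd3 and mt-Nd4l, more than 90% of their windows were shared, with 684 of 685 windows of mt-Co3 and 579 of 582 of mt-Atp6. The mRNAs mt-Nd4 (777 of 1279 windows), mt-Co1 (446 of 1446) and mt-Nd2 (30 of 939) shared fewer. Both rRNAs and the mRNAs mt-Nd1, mt-Atp8, mt-Nd5, mt-Nd6 and mt-Cytb shared no window, so those 7 genes are the ones whose levels no annotated copy touches. In all, 7 of the copies lie side by side on the minus strand of chromosome 1, between bases 24611535 and 24616197 of GRCm38, a run of 4663 bases that holds 7 genes of the tables and 0 others with a known position.

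The copies on chromosome 1 are nearly perfect, which is shown by the bases around the only differences found. Positions are counted from 1 at the 5′ end of the mitochondrial gene, and the base that differs is in capitals. Between mt-Co1 and Gm29216, whose match covers the last 483 bases of the gene, the single difference was A1066T. Between mt-Nd3 and Gm28438 it was T3C, in the first codon.
mt-Co1: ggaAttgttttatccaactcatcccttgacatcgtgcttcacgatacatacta
Gm29216: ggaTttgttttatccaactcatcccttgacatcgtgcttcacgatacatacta
mt-Nd3: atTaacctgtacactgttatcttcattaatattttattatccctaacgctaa
Gm28438: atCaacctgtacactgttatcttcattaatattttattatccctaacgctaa
The copies of mt-Co3, mt-Co2, mt-Atp6, mt-Nd4l and mt-Nd4 had no mismatch over the stretch they cover. The copy of mt-Co3, Gm28437, differs from the gene only in stopping 1 base before its end, the bare T in capitals.
mt-Co3 end: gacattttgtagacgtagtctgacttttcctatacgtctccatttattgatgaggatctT
Gm28437 end: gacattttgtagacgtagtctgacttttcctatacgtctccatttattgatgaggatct

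By the expected counts, the nuclear copy received most reads of 4 pairs. Gm28437 held 127073 expected reads in replicate 1 and 144403 in replicate 2, against 16181 and 27306 for mt-Co3, so that the copy took 88.7% and 84.1% of the pair. By TPM, Gm28437 ranked 5th among all genes in both libraries. The copy of mt-Co2, Gm28661, took 75.9% and 68.8% of its pair, the copy of mt-Nd4l, Gm10222, 91.7% and 88.1%, and the copy of mt-Nd3, Gm28438, 77.5% and 79.9%. The division went the other way for mt-Atp6, whose copy Gm10925 took 22.8% and 20.0%, and for mt-Co1, whose copy Gm29216 took 22.9% and 23.8%. For mt-Nd4 the copy Gm28439 held 0 and 9.36 reads, although it has no mismatch over its 876 bases, and the copy of mt-Nd2, Gm13339, held 0 and 1.84. The posterior mean counts of the same tables divided some pairs differently. By them Gm28437 took 67.4% and 64.0%, Gm28661 58.9% and 49.8%, Gm10222 90.1% and 82.0%, Gm28438 78.6% and 79.0%, Gm10925 26.8% and 26.3%, and Gm29216 22.9% and 23.8%. The copy of mt-Co2 therefore did not hold most reads of its pair in replicate 2 by that estimate. By either estimate the share given to a copy did not follow the share of identical windows in every pair. The 4 copies that took most expected reads all belong to genes with over 90% of windows shared. The exception among such genes was mt-Atp6. It and mt-Co3 share 99.5% and 99.9% of their windows, and the estimates divided them in opposite proportions. Both estimates carry a wide posterior SD, given below.

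The expected reads themselves show this division. Of the 8 mRNAs that share a window with a copy, 0 had an expected count within 0.02 of a whole number in both libraries. In replicate 1 mt-Nd2 and mt-Nd4 had whole counts, where their copies held 0 reads. The sum of the gene and its copies was whole for 8 of 8. For example, mt-Co3 and Gm28437 together held 143254 and 171709 reads. The 7 genes without a shared window had whole counts (7 of 7). The posterior SD of the count, which the authors' tables give as the uncertainty of the estimate, was 73.6% and 63.3% of the posterior mean for mt-Co3, 52.0% and 40.6% for mt-Nd4l, and 42.2% and 35.8% for mt-Co2. It was 16.8% and 19.8% for mt-Atp6 and 15.7% and 12.4% for mt-Nd3, under 1% for mt-Co1, mt-Nd4 and mt-Nd2, and 0 for the 7 genes without a shared window. Identical reads carry no mark of their source, so RNA of the chromosome 1 copies and RNA of the mitochondrial genes cannot be told apart here. Each level below is therefore given as the deposited TPM ("as deposited") and, for genes with a shared window, also with the reads of the copy that shares the most windows added.

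**Figure D2:**
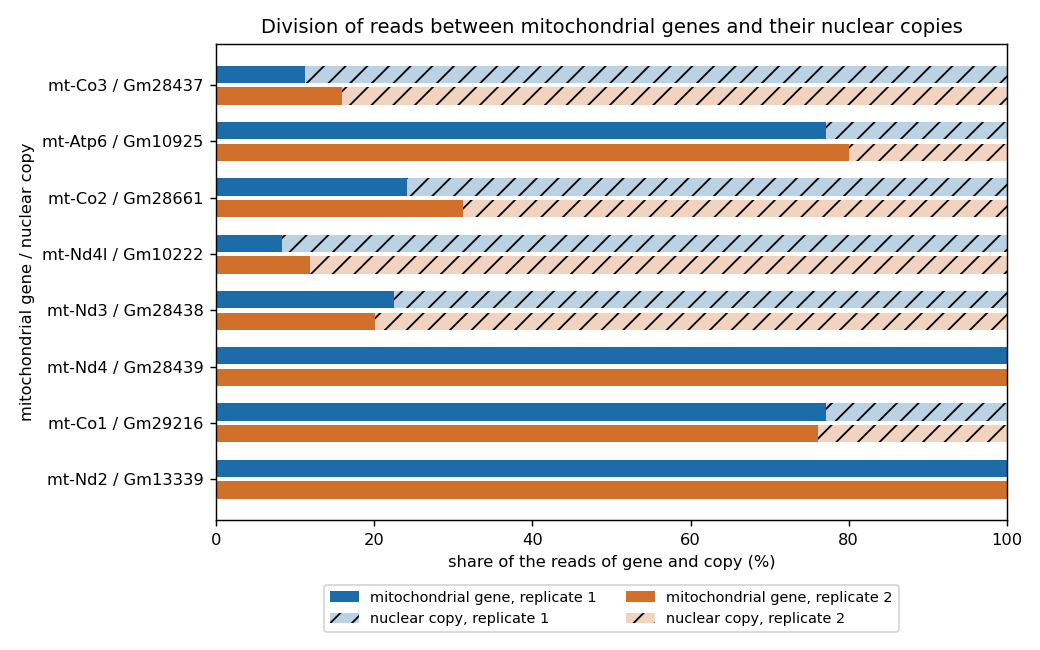
Share of the expected reads (x axis, %) of each of 8 mitochondrial mRNAs (solid) and its nuclear copy (hatched), in replicate 1 (blue) and replicate 2 (orange), ordered from the highest share of identical windows. The copy holds 88.7% and 84.1% of the reads of mt-Co3 and its copy, and under 0.1% of those of mt-Nd4 and of mt-Nd2 and their copies.

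With the 7 chromosome 1 copies counted in, the mitochondrial sequence held 2.49% and 2.28% of the gene reads. The copies made up 28.9% and 27.6% of that sum. The wider search by sequence added 4 genes to these 7, among them Gm4076, a match to mt-Nd5 with 0 reads, and left the sums at 2.49% and 2.28%.

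The 2 ribosomal RNAs form the core of the mitochondrial ribosome. The large-subunit 16S rRNA, mt-Rnr2 (chrM:1094-2675), reached 4965 TPM in replicate 1 and 4428 in replicate 2. The small-subunit 12S rRNA, mt-Rnr1 (chrM:70-1024), reached 1297 and 1076 TPM. Both are cut from the same precursor, and mt-Rnr2 was 3.97-fold higher per length, a log2 difference of 1.99 ± 0.073 (SD, n = 2) that was larger than its spread. Neither has a nuclear copy with an identical window. With 4697 ± 379 TPM, mt-Rnr2 stood 1.64-fold above mt-Cytb. Whether rRNA was removed in making the libraries was not examined here, so these ratios describe the libraries.

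The 7 mRNAs of complex I, the entry point of electrons from NADH, spanned the widest range. The level of mt-Nd1, a membrane-arm subunit, was 2496 and 2111 TPM, and that of mt-Nd2, which lies next to it with only tRNA genes between, was 885 and 765 TPM, 2.79-fold lower. The level of mt-Nd4 was 1381 and 1243 TPM, and that of mt-Nd5 was 382 and 354 TPM. The light-strand mRNA mt-Nd6 stood at 511 and 459 TPM. None of these values changed by more than 1 TPM when the copies of mt-Nd2 and mt-Nd4 were added.

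The remaining complex I mRNAs depended on the division of reads. As deposited, mt-Nd3 stood at 436 and 341 TPM and mt-Nd4l at 62.0 and 81.1 TPM, the lowest level of the 15. With their copies added they stood at 1938 and 1695 TPM and at 749 and 680 TPM. The TPM interval that the authors deposited for mt-Nd4l, with no confidence level stated, ran from 7.06 to 146 in replicate 1 and from 35.2 to 209 in replicate 2. The genes mt-Nd4l and mt-Nd4 share a transcript, yet mt-Nd4 was 18.4-fold higher as deposited (log2 4.21 ± 0.38, SD, n = 2). With the copies added the difference was 1.84-fold (log2 0.88 ± 0.0085). That SD does not cover the length correction, since the TPM of mt-Nd4l rests on an effective length of 198 for its 297 bases.

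Complex III, which passes electrons to cytochrome c, has a single mitochondrial subunit, cytochrome b. Its mRNA mt-Cytb (chrM:14145-15288) reached 3021 and 2720 TPM, with no shared window. It was 7.79-fold higher than mt-Nd5, the neighbour before mt-Nd6 in the genome (log2 2.96 ± 0.028, SD, n = 2).

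The 3 mRNAs of complex IV encode the catalytic core of cytochrome c oxidase. The level of mt-Co1 (chrM:5328-6872) was 2806 and 2464 TPM, and 3640 and 3235 with its copy. The level of mt-Co2 (chrM:7013-7696) was 1088 and 1214 TPM as deposited, and 4516 and 3893 with its copy. The level of mt-Co3 (chrM:8607-9390) was 1179 and 1491 TPM as deposited, and 10435 and 9376 with its copy, which is the highest sum of the 15 genes in both libraries. The tables hold a second estimate, the posterior mean TPM, which was 3305 and 3303 for mt-Co3, 1802 and 1911 for mt-Co2 and 2727 and 2412 for mt-Co1. Thus the TPM of mt-Co3 was higher in replicate 2 and its posterior mean was nearly equal in both libraries. For mt-Co2 both estimates were higher in replicate 2, and all 3 sums of TPM were lower there.

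The pair of ATP synthase mRNAs of complex V is read from a shared transcript. The level of mt-Atp8 was 6539 and 5090 TPM, with no shared window, and that of mt-Atp6 was 7175 and 6344 TPM, the highest of the 15 as deposited in both libraries. With its copy mt-Atp6 stood at 9299 and 7926 TPM. The log2 difference of mt-Atp6 over mt-Atp8 was 0.23 ± 0.13 as deposited and 0.57 ± 0.093 with the copy (SD, n = 2), above 0 in both libraries. The TPM of mt-Atp8 rests on an effective length of 105 for its 204 bases. By expected reads per annotated base mt-Atp8 stood at 67.5 and 70.0, below mt-Rnr2 at 93.3 and 111 and mt-Atp6 at 123 and 145.

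**Figure D3:**
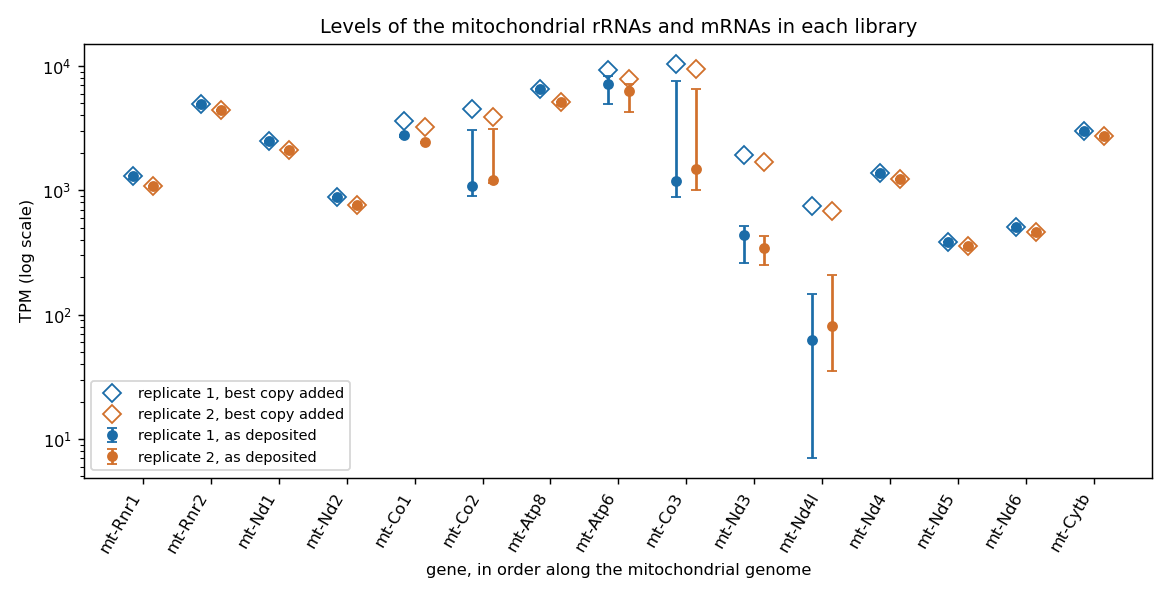
TPM (y axis, log scale) of the 2 rRNAs and 13 mRNAs in their order along the mitochondrial genome, in replicate 1 (blue) and replicate 2 (orange). Filled points are the deposited values, with the interval deposited by the authors as whiskers, drawn from the point where the interval lies below it, and open diamonds add the copy that shares the most windows. The whiskers are long for mt-Co2, mt-Atp6, mt-Co3, mt-Nd3 and mt-Nd4l, and for these 5 and mt-Co1 the diamonds lie clearly above the points.

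The order of the 15 genes by mean TPM as deposited was mt-Atp6, mt-Atp8, mt-Rnr2, mt-Cytb, mt-Co1, mt-Nd1, mt-Co3, mt-Nd4, mt-Rnr1, mt-Co2, mt-Nd2, mt-Nd6, mt-Nd3, mt-Nd5 and mt-Nd4l. In 3 of the 14 pairs of neighbours the difference was not larger than its SD over the libraries and its sign was not the same in both. These were mt-Co3 and mt-Nd4, mt-Rnr1 and mt-Co2, and mt-Nd3 and mt-Nd5, and each of them includes a gene that shares over 90% of its windows. By the deposited intervals, which overlapped in at least 1 library for 6 of the 14 pairs, mt-Atp6 and mt-Atp8, mt-Nd1 and mt-Co3, and mt-Nd6 and mt-Nd3 were not separated either. With the copies added the order was mt-Co3, mt-Atp6, mt-Atp8, mt-Rnr2, mt-Co2, mt-Co1, mt-Cytb, mt-Nd1, mt-Nd3, mt-Nd4, mt-Rnr1, mt-Nd2, mt-Nd4l, mt-Nd6 and mt-Nd5, and in 0 of the 14 pairs was the difference within its SD. The highest mRNA exceeded the lowest by 116-fold and 78.3-fold as deposited, and by 27.3-fold and 26.5-fold with the copies added.

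The sole light-strand mRNA, mt-Nd6, was lower than the median of the 12 heavy-strand mRNAs by 2.72-fold as deposited (log2 -1.44 ± 0.17, SD, n = 2) and by 5.29-fold with the copies added (log2 -2.40 ± 0.031). It was 1.32-fold higher by TPM than mt-Nd5, the heavy-strand gene it overlaps (log2 0.40 ± 0.029). The gap was smaller by expected reads per annotated base, with mt-Nd6 at 8.29 and 9.94 and mt-Nd5 at 7.25 and 8.95. Unlike the heavy-strand mRNAs, mt-Nd6 is known to carry no poly(A) tail. Along the 12 heavy-strand mRNAs, which come from the same precursor and the same 2 libraries, the mean TPM had a Spearman correlation of -0.23 with the position of the gene's start as deposited, and of -0.29 with the copies added. The correlation with length was -0.063 and -0.34, and with GC content -0.098 and 0.014. These are descriptions over 12 genes.

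Relative to all genes, every mitochondrial RNA with reads differed by less than 2-fold between the libraries. The log2 ratio of replicate 2 over replicate 1, from rounded expected counts scaled by edgeR's TMM factors over all genes, reached 2-fold for 0 of the 15 genes with reads. The background was 14366 genes with 50 or more reads on average, of which 0.724% were 2-fold apart or more. As deposited, 12 of the 15 were lower in replicate 2 and 3 were higher, namely mt-Co2 (0.20), mt-Co3 (0.39) and mt-Nd4l (0.43). Over all genes 49.1% were lower in replicate 2. With the copies added 15 of 15 were lower, with ratios from -0.32 (mt-Atp8) to -0.066 (mt-Nd5), and mt-Co2, mt-Co3 and mt-Nd4l stood at -0.17, -0.11 and -0.094. In these 3 pairs the gene and its copy had opposite signs: for mt-Co3 the gene stood at 0.39 and Gm28437 at -0.19.

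The median ratio of the 13 mRNAs was -0.11 as deposited and -0.12 with the copies added, beside 0.0037 over these 14366 genes, whose middle 50% ran from -0.088 to 0.12. The 5 mRNAs without a shared window also had a median of -0.11. The mean over the 13 as deposited was -0.048, nearer to 0. For the 7321 genes with 1000 or more reads on average the median was -0.0098 and the middle 50% ran from -0.077 to 0.069. The 15 genes share precursors and libraries, so they are not 15 separate observations. Under the spike-in scale the median over the 14366 genes was -0.88 and that of the mRNAs -0.99. On that scale 7 of the 15 were 2-fold lower or more in replicate 2, from mt-Atp6 at -1.01 to mt-Atp8 at -1.20, beside 19.2% of the 14366 genes at least 2-fold apart. On the TMM scale all 4 meninges markers (median ratio 0.33), all 7 midbrain markers (0.22) and all 4 endothelium markers (0.14) were higher in replicate 2. Of the 6 blood markers 1 was lower (median 0.081), of the 4 neuron markers 3 were lower (-0.061) and of the 4 progenitor markers 2 (-0.0041). The 6 muscle markers summed to 2.51 and 2.07 TPM. Their part in the mitochondrial ratios was not tested.

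**Figure D4:**
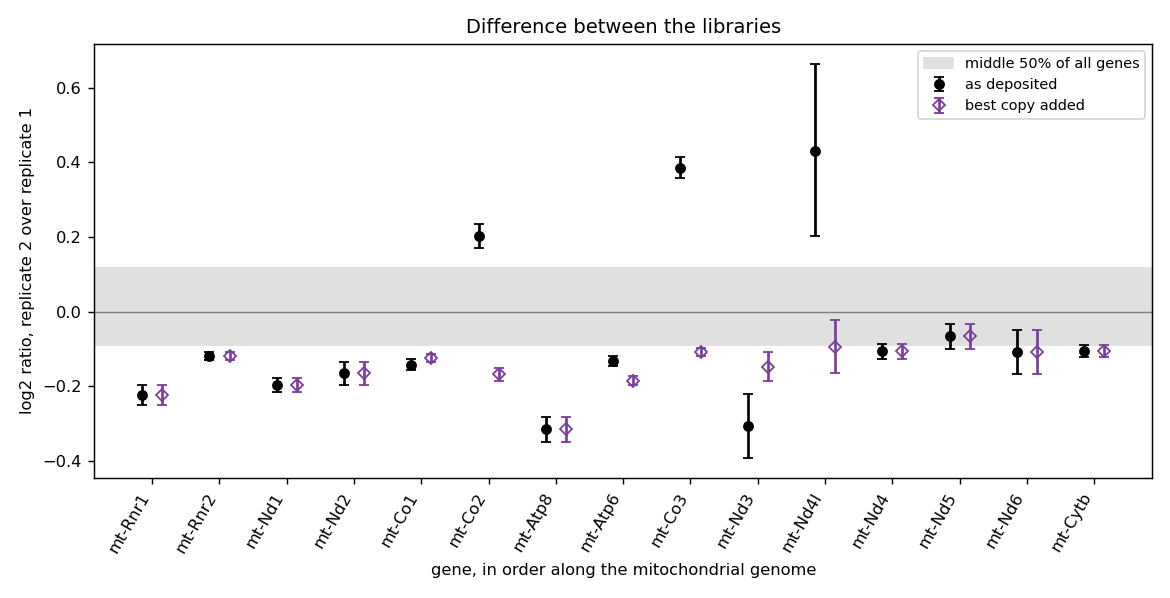
Log2 ratio of replicate 2 over replicate 1 (y axis, TMM scale) for the 15 mitochondrial genes with reads, as deposited (black) and with the copy that shares the most windows added (purple), with exact 95% intervals that cover counting error only. The grey band is the middle 50% of all genes, from -0.088 to 0.12. As deposited mt-Co2, mt-Co3 and mt-Nd4l lie above 0, and with copies added every gene lies below it.

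The median level of the mitochondrial mRNAs stood above that of the nuclear subunits in each complex, while in complex I the genes overlapped. The median of the 13 was 1179 and 1243 TPM as deposited, and that of 74 nuclear subunits of complexes I, III, IV and V was 317 and 307 TPM, a difference of 3.88-fold (log2 1.96 ± 0.087, SD, n = 2). With the copies added it was 7.36-fold (log2 2.88 ± 0.14). Of the 74 nuclear subunits 1 exceeded the mitochondrial median, Atp5b, the catalytic beta subunit of ATP synthase, at 1669 and 1583 TPM, and 0 exceeded the highest mitochondrial mRNA. The gap was smallest in complex I, where the mitochondrial median of 511 and 459 TPM was 1.84-fold above the nuclear median of 276 and 250 TPM. There Ndufc1, an accessory subunit, was the highest nuclear gene at 684 and 604 TPM and Ndufb4, another accessory subunit, the lowest at 45.7 and 43.0. With the copies added the complex I medians were 3.13-fold apart. As deposited, 35 and 34 of its 36 nuclear subunits exceeded the lowest mitochondrial mRNA, mt-Nd4l, and with the copies added 7 in each library exceeded the lowest, mt-Nd5.

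In complex III mt-Cytb was 8.20-fold above the nuclear median of 356 and 343 TPM, which ran from Uqcrc2 at 163 and 155 to Uqcrq at 525 and 523. In complex IV the mitochondrial median was 2.24-fold above the nuclear one of 617 and 569 TPM as deposited, and 7.08-fold with the copies added. Cox6b1 was its highest nuclear member at 1050 and 1012 TPM. The muscle form Cox6a2 was its lowest at 0.090 and 0.070 TPM and the only one of the 74 below 1 TPM. The gap was widest in complex V, 13.2-fold as deposited and 14.9-fold with the copy of mt-Atp6 added, over a nuclear median of 484 and 460 TPM, where Atp5g2 was the lowest at 140 and 138. Reads that nuclear subunits may share with pseudogenes were not examined here.

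**Figure D5:**
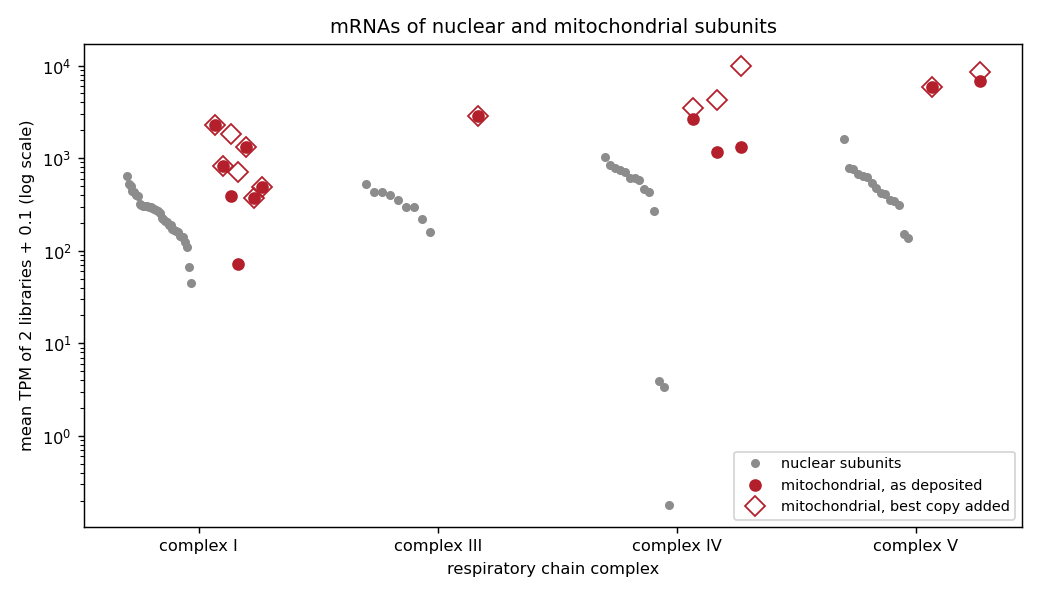
Mean TPM of the 2 libraries + 0.1 (y axis, log scale) of the nuclear subunits (grey, ordered by level) and the mitochondrial mRNAs (red, in genome order) of each respiratory chain complex. Filled points are deposited values and open diamonds add the copy that shares the most windows. In complexes III, IV and V every mitochondrial mRNA lies above every nuclear subunit, and in complex I the deposited mt-Nd4l, at a mean of 71.5 TPM, lies among the lowest.

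The nuclear genes that transcribe, process and translate mitochondrial RNA were nearly all detected, and the median of each list lay below the median of the mitochondrial mRNAs. All 11 genes for transcription were detected, at a median of 28.7 and 24.5 TPM. Among them were Polrmt, the mitochondrial RNA polymerase, at 32.3 and 35.0 TPM, and Tfam, which packages mitochondrial DNA and starts its transcription, at 46.4 and 45.0. The highest was Mrpl12, a ribosomal protein, at 89.8 and 87.2 TPM, and the lowest Mterf1b, of the termination factor family, at 3.04 and 3.01. Of 14 listed genes for maintaining mitochondrial DNA 13 were matched by name, and all of these were detected (median 15.4 and 14.4 TPM). They ran from Primpol, a primase and polymerase, at 7.16 and 6.88 to Ssbp1, the single-strand binding protein, at 134 and 118.

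All 24 genes for RNA processing and modification were detected (median 18.6 and 18.1 TPM), led by Hsd17b10, a subunit of mitochondrial RNase P, at 97.3 and 99.8, and Grsf1, an RNA granule protein, at 63.9 and 66.6, with Nsun3, a tRNA methyltransferase, the lowest at 7.76 and 6.68. The 9 genes for RNA stability, tailing and decay had a median of 29.2 and 27.6 TPM. Within this list Slirp was the highest at 248 and 243 TPM and Pde12, which removes poly(A) tails, the lowest at 10.3 and 10.0. Lrpprc stood at 34.4 and 34.7 TPM, and its protein forms with that of Slirp a complex that stabilizes mitochondrial mRNAs. All 77 genes for mitochondrial ribosomal proteins were detected (median 71.0 and 74.0 TPM), from Mrpl1 at 15.4 and 12.5 to Mrps21 at 287 and 273.

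The 22 tRNA synthetases that serve mitochondria had a median of 17.9 and 15.9 TPM, with Mars2 the lowest at 2.97 and 2.53. Lars2, the leucine enzyme, stood apart at 763 and 755 TPM, above Gars at 169 and 157 and Kars at 137 and 131, which also serve the cytosol. It exceeded the deposited levels of mt-Nd6, mt-Nd3, mt-Nd5 and mt-Nd4l. With the copies added mt-Nd3 stood above Lars2, at 1938 and 1695 TPM, and mt-Nd4l stayed below it, at 749 and 680. Reads that the genes of these lists, Lars2 among them, may share with other sequences were not examined here. In the list of biogenesis genes 9 of 10 were detected, with Vdac1, a pore of the outer membrane, at 217 and 216 TPM, and Ppargc1b, a coactivator, at 1.21 and 0.99. On the TMM scale no gene in these lists was 2-fold apart between the libraries (0 in each). The share over the 14366 genes with 50 or more reads on average was itself only 0.724%. The median log2 ratios of the lists ran from -0.093 for DNA maintenance to 0.021 for biogenesis.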

How the data were processed

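Gene tables of 2 libraries were used, made on mm10 and GENCODE M4 according to their accompanying text. The deposited expected counts are estimates that may be fractional. TPM as deposited is scaled to length and to a common total that includes spike-ins, and FPKM as deposited to length and aligned reads. The deposited bounds of the TPM interval have no stated level and were used as a signal range. Columns are named as RSEM names them, per the file headers; the sources used here name no aligner, version, read length or strand setting. Where a read matches several genes, such estimates split it between them.

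Positions, symbols and transcript sequences came from GENCODE M21, matching 42462 of 43346 genes; 884 were not placed. Copies came from a list of 7 genes. A search of M21 transcripts with BLAST 2.17.0 (at least 100 bases at 95% identity, 11 genes found), the identical 100-base windows, the check for whole sums and some of the sums with copies (named in the closing section) were added after the values were seen. No genome sequence was searched, so unannotated copies are not counted, and M4 and M21 may differ.

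Expected counts were rounded and scaled with TMM in edgeR 4.0.16 (R 4.3.3), with DESeq2 1.42.0 size factors as an alternative. Ratios used a prior count of 0.5, the 2-fold rule a mean count of at least 50, medians of ratios a mean count of at least 10, and log2 TPM a pseudocount of 0.1. The ratio step was tested on simulated data. Detected means at least 1 TPM in both libraries. Intervals are exact Clopper-Pearson at 95% and cover counting error only. Total reads were 32151659 and 41915240. No test across genes was made, since there is 1 group. All mRNAs and rRNAs were named, with up to the 4 highest and the lowest gene of each nuclear list and the copies with most reads; other copies were named after their values were seen. The members and lists were chosen with earlier results of these data known. Transcript tables were not used here.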

Additional observations from a re-analysis of the deposited data

Results flagged for a closer look

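The tables list 26248 tRNA entries apart from the 22 mitochondrial tRNA genes. They held 23.5 expected reads in replicate 1 and 22 in replicate 2, above the limit of 3 reads that a count of 0 allows, and were used in no comparison. Reads lay on 15 of these entries. None of the 26185 entries shorter than 100 nt held a read (0 in both libraries), and of the 53 entries of 100 to 199 nt 10 did, the shortest 113 nt long. The mitochondrial tRNAs, at 59 to 75 nt, fall in the class without reads.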

How the results depend on the processing

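The 8 results were recomputed under 50 alternatives. Of these, 39 left values within the SD of the libraries, counts within 1.5 times, and the ratio between libraries within the counting interval of the gene at the median, mt-Nd6. Several of the 39 could not have come out otherwise, so this number is no measure of robustness. Each of 2 libraries always lies within the SD around their mean. FPKM keeps the order of TPM within a library, neither rRNA has a copy to add, and the tRNAs without reads stay undetected at any limit. The 4 signed results kept their sign. The share of gene reads on the 37 genes, 1.71%, was 3.47% as a share of gene TPM, 2.39% with 7 copies and 2.39% with the 11 found by sequence search, and each library alone gave 1.65 to 1.77%. Of the 13 mRNAs 7 kept their place in the order with the posterior mean TPM, 9 by expected count per annotated length and 0 with the copies added. Each library alone kept 11. The median difference between the mRNAs and nuclear subunits, 1.96, was 2.13 with means and 2.88 with copies, and 1.90 to 2.02 in single libraries. The difference of mt-Nd6 from the heavy-strand median, -1.44, was -2.40 with copies and -1.57 to -1.32 in single libraries. The median ratio between the libraries, -0.11, was -0.99 on the spike-in scale, -0.048 as a mean and -0.15 as a ratio of TPM. The number of members 2-fold apart, 0, was 7 on the spike-in scale and 0 under the other 6 alternatives. The 16S to 12S difference ran from 1.94 to 2.04 in single libraries, and 15 genes were detected in each. Adding copies moves these values by construction, since their reads join the sums, and the cause of the other shifts was not tested. Chosen after the data were seen were the sequence search, the spike-in scale for the number 2-fold apart, the mRNAs without a shared window, and the copies added to the ratio, to the number 2-fold apart and to both median differences. A single library gives no ratio between libraries, so that result has no such value. No paired analysis was possible because there is 1 group. Depth does not limit the 15 genes with reads, the lowest of which held 246 and 429 expected reads. For the 5 mRNAs that share over 90% of their windows the posterior SD was 12.4 to 73.6% of the count, and the tRNAs, with an effective length of 0, have no measured level.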
